A study of Homo sapiens with 4 samples.

Results

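The KLF genes followed here encode 10 Krüppel-like factors: KLF2, KLF3, KLF4, KLF5, KLF6, KLF7, KLF9, KLF10, KLF11 and KLF13. They were taken by name from the 20263 gene rows of the count table, each had 1 row, and all 10 passed the filter on low counts. The groups were Neoribocic, MDA-MB-231 cells given the compound for 24 h, and DMSO, the same line with the solvent alone, with 2 libraries in each. MDA-MB-231, a long-established human breast cancer line without hormone receptors or HER2 amplification, was grown with 10% serum, and the series title connects Neoribocic to a block of the cell cycle. The treatment protocol calls the compound Rib_CA, which was read as the same treatment, and the sources used here state no dose. A single line was studied and no label ties the 2 libraries of a group to separate cultures, so p-values measure the spread between these libraries, which may be technical.

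Krüppel-like factors are transcription factors that grip CACCC and GC-rich DNA with zinc fingers at their C-terminal end, and differ in the partners they recruit. KLF2, KLF4, KLF5, KLF6 and KLF7 mostly activate genes through acetyltransferases, KLF3 and KLF12 repress through CTBP proteins, and KLF9, KLF10, KLF11, KLF13, KLF14 and KLF16 repress through SIN3A. Several are fast-response genes: KLF2 and KLF4 are induced through the kinase ERK5 and MEF2 factors, KLF10 and KLF11 by TGF-beta, KLF9 and KLF15 by glucocorticoids, and KLF6 by injury and stress. KLF2 is known for holding endothelial cells and T cells in quiescence, whereas KLF5 is known for driving the growth of epithelial and basal-like breast cancer cells.

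Promoters are shown for the KLF genes with the smallest p in each direction that had a RefSeq window. These were KLF2 and KLF5 among the lower genes and KLF4 among the higher. KLF10 had a smaller p than KLF5 but no window was found for it. Whether the motifs bear on the values below was not tested. The windows are the 250 bases before a RefSeq start in GRCh38.p14, chr19:16324576-16324825 on the plus strand for KLF2, chr9:107489770-107490019 on the minus strand for KLF4 and chr13:73054726-73054975 on the plus strand for KLF5, whose upstream start is shown. Capitals mark the CACCC box (CACCC), the GC box (GGGCGG) and the MEF2 site, each searched on both strands.
KLF2: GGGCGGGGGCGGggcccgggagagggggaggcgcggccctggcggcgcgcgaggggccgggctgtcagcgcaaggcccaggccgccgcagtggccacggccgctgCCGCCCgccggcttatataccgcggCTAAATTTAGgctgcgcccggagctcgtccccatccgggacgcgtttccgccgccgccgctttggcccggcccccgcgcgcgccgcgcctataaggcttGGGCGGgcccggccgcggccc
KLF4: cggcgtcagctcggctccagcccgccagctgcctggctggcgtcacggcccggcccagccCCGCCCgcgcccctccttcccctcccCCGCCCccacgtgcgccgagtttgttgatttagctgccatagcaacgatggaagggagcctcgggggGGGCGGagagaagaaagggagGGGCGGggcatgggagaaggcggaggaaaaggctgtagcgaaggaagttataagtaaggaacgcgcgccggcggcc
KLF5: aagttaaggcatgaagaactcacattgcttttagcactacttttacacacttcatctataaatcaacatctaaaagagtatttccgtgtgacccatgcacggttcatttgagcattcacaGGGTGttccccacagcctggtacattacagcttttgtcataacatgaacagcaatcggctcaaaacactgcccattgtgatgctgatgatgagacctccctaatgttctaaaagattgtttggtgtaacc
The KLF2 window held 4 GC boxes, of which 2 lie side by side at its start, and 1 MEF2 site. The KLF4 window held 4 GC boxes and no MEF2 match, and the upstream KLF5 window held 1 CACCC box. The window at the other KLF5 start held 2 GC boxes and 2 CACCC boxes. RefSeq windows were found for 8 of the 10 genes, all but KLF3 and KLF10, 13 windows in all. GC boxes were in 8 of these windows, CACCC boxes in 6 and a MEF2 site in 1. Of the 35116 windows of this length over all genes, 42.6% held a GC box, 54.7% a CACCC box and 2.8% a MEF2 site. A match is a run of letters and not a measured binding site.

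The totals ran from 34774542 to 43014212 counts, and mitochondrially encoded genes held 5.76% and 7.24% of the counts in Neoribocic replicates 1 and 2, against 8.68% and 21.7% in DMSO replicates 1 and 2. Levels are given as CPM, counts scaled to library totals adjusted by TMM, a method that sets the bulk of genes level between libraries. Across genes, shorter and GC-richer transcripts tended to have higher log2 fold changes (Spearman correlation -0.40 with length and 0.45 with GC content over 13862 genes, which are not independent replicates), so a value corrected for both is given where it changes a call or moves a value by over 1.5 times. The 6 markers of the line stood between 220 and 4240 CPM in every library. CDH1 and ESR1, markers of other breast lines, 3 of 5 endothelial markers and all 4 leukocyte markers stayed below 1 CPM. The remaining markers of other breast lines did not. KRT19 had 184 to 403 CPM, ERBB2 65.6 to 109 CPM, GATA3 8.22 to 21.8 CPM and EPCAM 9.31 to 9.93 CPM, and PGR reached 1.77 CPM. Of the endothelial markers, KDR reached 6.6 CPM and PECAM1 1.16 CPM, both in DMSO replicate 1. The summed level of the line's markers was 5340 to 5650 CPM with Neoribocic and 7420 to 8670 CPM with DMSO, that of the 7 other breast line markers 412 to 530 CPM with Neoribocic and 281 to 375 CPM with DMSO, and that of the endothelial markers, with CDH5 at 0 in every library, 1.74 to 2.27 CPM with Neoribocic and 6.95 to 8.04 CPM with DMSO. The part of these shifts in the KLF values was not tested.

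With Neoribocic 3 of the 10 KLF genes fell, KLF2, KLF5 and KLF10, and 0 rose by edgeR's quasi-likelihood test at a Benjamini-Hochberg adjusted p of 0.05. Over all 13879 genes tested, 40.4% were called in either direction, 21.3% were lower and 19.1% were higher, so the count of KLF genes that fell lies near the background. All 3 fell at least 2-fold, as 14.8% of all genes did. At an unadjusted p under 0.05, 1 of the 10 was higher, as it was by DESeq2, and limma-voom called 0 higher. The libraries of the groups did not overlap for 9 of the 10, 4 with Neoribocic above and 5 below, where 75.1% of all genes do not overlap. The median log2 fold change of the 10 was -0.20, against 0.01 over all genes. After the correction for length and GC content it changed sign, to 0.27, against -0.01 over all genes. Of all calls, 47.2% were higher with TMM scaling and 59.6% with library totals, a scaling that moved the median of all genes by 0.17.

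**Figure D1:**
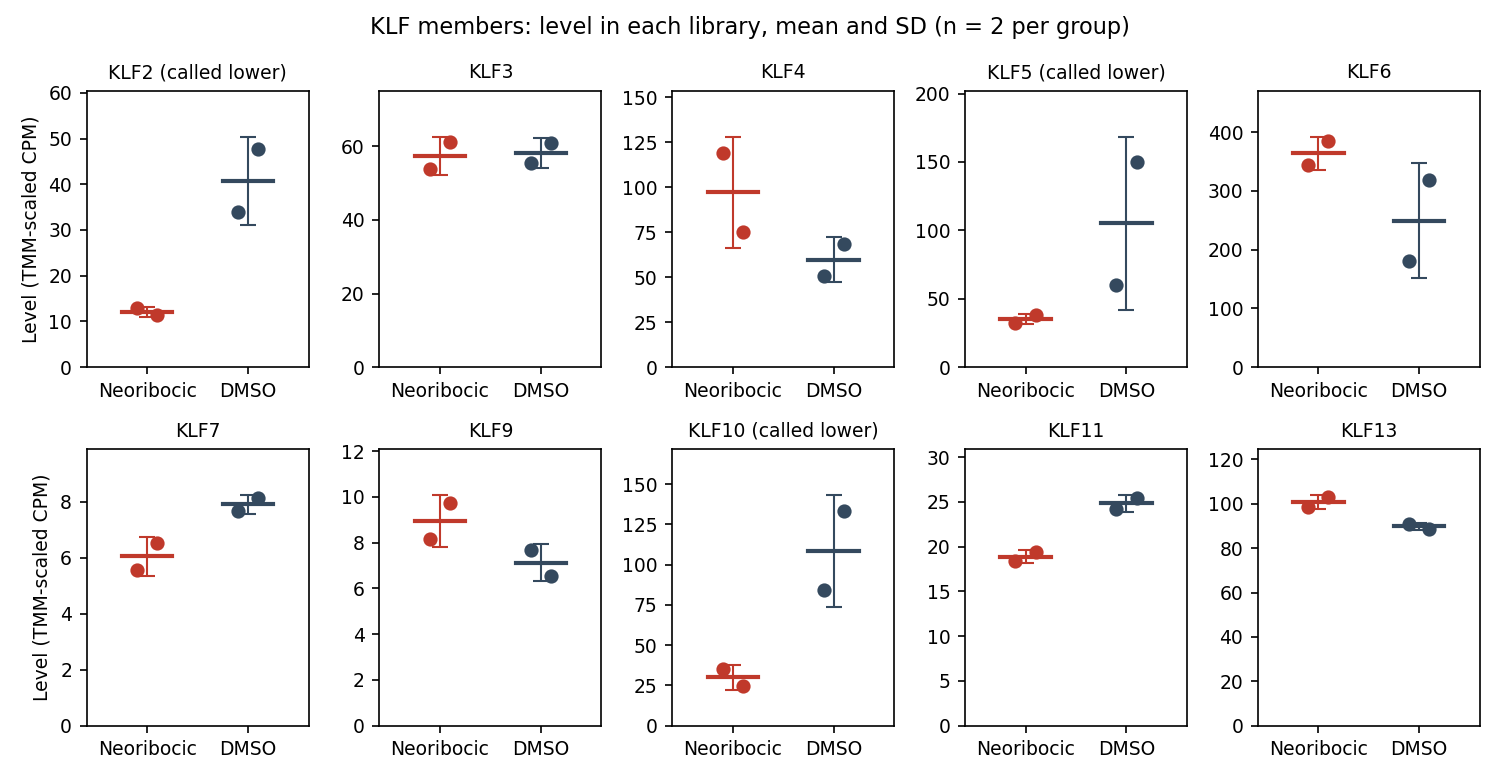
Level of each KLF gene in CPM (vertical axis, from 0) in the 2 Neoribocic and 2 DMSO libraries, with points for libraries and lines and bars for mean and SD. For KLF2, KLF5 and KLF10 both Neoribocic libraries lie well below both DMSO libraries, and KLF3 is the gene whose groups overlap.

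Among the activating factors, KLF2 and KLF5 fell while KLF4 and KLF6 had higher values that did not pass the test. KLF2 (ENSG00000127528), the quiescence factor of endothelial and T cells, had 12.9 and 11.3 CPM in Neoribocic libraries, against 34 and 47.6 CPM in DMSO libraries. Both treated libraries lay below both controls and close to each other. KLF2 was 3.38-fold lower, a log2 fold change (Neoribocic minus DMSO) of -1.76 ± 0.25 (SE, n = 2 per group), with an edgeR adjusted p of 0.00173. KLF2 stayed lower and called under all 17 alternatives, with an adjusted p of at most 0.016. The correction for length and GC content took its log2 fold change to -2.45. The transcript of KLF2 is short and rich in GC, 2018 bases at 65.2% GC, and genes of that kind tended to be higher with Neoribocic.

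KLF5 (ENSG00000102554), the growth-promoting factor of epithelia, had 32.5 and 38.0 CPM in Neoribocic libraries, against 60.4 and 150 CPM in DMSO libraries. The treated libraries were alike and below both controls, but the controls differed 2.48-fold from each other. The log2 fold change was -1.57 ± 0.44 (edgeR adjusted p = 0.0356). Without DMSO replicate 2 it was -0.76 (edgeR adjusted p = 0.0643). The call was also lost without Neoribocic replicate 1 or 2 (edgeR adjusted p = 0.207 and 0.119), with upper-quartile factors (0.0552) and with the correction (0.0745). The direction was the same under all alternatives.

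KLF4 (ENSG00000136826), a reprogramming factor that activates the gene of the CDK inhibitor p21, had 119 and 75.3 CPM in Neoribocic libraries, against 50.7 and 68.4 CPM in DMSO libraries. The groups did not overlap, but the lower treated library stood only just above the higher control. The log2 fold change was 0.71 ± 0.27 (edgeR adjusted p = 0.0695). It was 1.0 and past the threshold without Neoribocic replicate 2 (edgeR adjusted p = 0.0309) and 0.35 without Neoribocic replicate 1 (0.419). It also passed with DESeq2 (0.0497), library totals (0.0198) and upper-quartile factors (0.0354), and stood at 0.41 after the correction.

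KLF6 (ENSG00000067082), an injury-induced factor that also activates the p21 gene, had 344 and 384 CPM in Neoribocic libraries, against 180 and 319 CPM in DMSO libraries. Both treated libraries were above both controls, which differed 1.77-fold between themselves. The log2 fold change was 0.55 ± 0.28 (edgeR adjusted p = 0.147). It was 1.03 without DMSO replicate 2 (edgeR adjusted p = 0.0217), 0.19 without DMSO replicate 1 (0.543), 0.75 with library totals (0.0277) and 0.93 after the correction (0.0453). KLF7 (ENSG00000118263), a factor of neuronal growth, was low, with 5.56 and 6.53 CPM in Neoribocic libraries and 7.67 and 8.14 CPM in DMSO libraries. Its log2 fold change was -0.39 ± 0.26 (edgeR adjusted p = 0.255) and turned to 0.43 after the correction (0.148).

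The ratio of DMSO replicate 2 to DMSO replicate 1 ran from 0.852 for KLF9 to 2.48 for KLF5 over the 10 genes. It was 1.77 for KLF6, 1.58 for KLF10, 1.40 for KLF2 and 1.35 for KLF4, and between 0.978 and 1.1 for KLF3, KLF7, KLF11 and KLF13. Over all genes the 5th and 95th percentiles of that ratio were 0.573 and 1.83, so KLF5 lay above this range and the other 9 within it. The serum-response gene EGR1 differed 6.46-fold, at 319 CPM in DMSO replicate 2 and 49.5 CPM in DMSO replicate 1, and FOS 1.93-fold; both were picked out after their values were seen. In Neoribocic libraries EGR1 had 90.0 and 127 CPM, between the controls. DMSO replicate 2 was also the library with the highest mitochondrial share. With mitochondrial genes left out of the fit KLF5 stood at -1.57 (edgeR adjusted p = 0.0375). That fit only removes the mitochondrial counts, so it cannot tell whether other differences of DMSO replicate 2 reach KLF5. The part of the mitochondrial and serum-response differences in the KLF values was not tested. Without DMSO replicate 2, KLF2 was at -1.48 and KLF10 at -1.48, both still called (edgeR adjusted p = 0.0101 and 0.0140).

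The CTBP-recruiting repressor KLF3 (ENSG00000109787) had 53.7 and 61.1 CPM in Neoribocic libraries, against 55.4 and 61.0 CPM in DMSO libraries. The groups overlapped, with a log2 fold change of -0.02 ± 0.20 (edgeR adjusted p = 0.944). With the correction it stood at 0.63 and passed (edgeR adjusted p = 0.032), and its sign also changed with scaling, at 0.16 with library totals and 0.10 with upper-quartile factors. The antisense gene KLF3-AS1 overlaps 4.22% of the exon bases of KLF3 in GENCODE release 29, and whether the counting used strand is not stated.

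Among the SIN3A-recruiting repressors KLF10 fell, and its closest relative KLF11 had lower values that did not pass. KLF10 (ENSG00000155090), the TGF-beta-inducible early gene TIEG1, had 35.4 and 24.5 CPM in Neoribocic libraries, against 84.1 and 133 CPM in DMSO libraries. Every treated library was below every control by a wide gap. KLF10 was 3.63-fold lower, a log2 fold change of -1.86 ± 0.30 (edgeR adjusted p = 0.00279), at the 4.46th percentile of all genes tested. It kept its call under 16 of 17 alternatives. The exception was the replicate block together with the correction, which gave -1.55 and an adjusted p of 0.0583.

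KLF11 (ENSG00000172059), or TIEG2, had 18.4 and 19.4 CPM in Neoribocic libraries, against 24.2 and 25.5 CPM in DMSO libraries. The groups stood apart by little, with a log2 fold change of -0.39 ± 0.22 (edgeR adjusted p = 0.176) and -0.11 after the correction, and 9.07% of its exon bases overlap an antisense gene. KLF13 (ENSG00000169926), which activates the chemokine gene CCL5 in T cells, had 98.6 and 103 CPM in Neoribocic libraries, against 90.9 and 88.8 CPM in DMSO libraries. It had a log2 fold change of 0.17 ± 0.18 (edgeR adjusted p = 0.488). KLF9 (ENSG00000119138), a glucocorticoid-induced repressor, had 8.15 and 9.75 CPM in Neoribocic libraries, against 7.70 and 6.56 CPM in DMSO libraries. The log2 fold change of KLF9 was 0.33 ± 0.26 (edgeR adjusted p = 0.333), and it passed only with the correction, at 0.73 (0.0397).

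After the correction 3 of the 10 were called higher (KLF3, KLF6 and KLF9) and 2 lower (KLF2 and KLF10), against 16.5% and 19.3% of all genes. KLF2 and KLF10 were the members called lower in both fits. KLF5 and KLF11 also had lower values in both. KLF5 was called only without the correction, and KLF11 in neither fit.

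**Figure D2:**
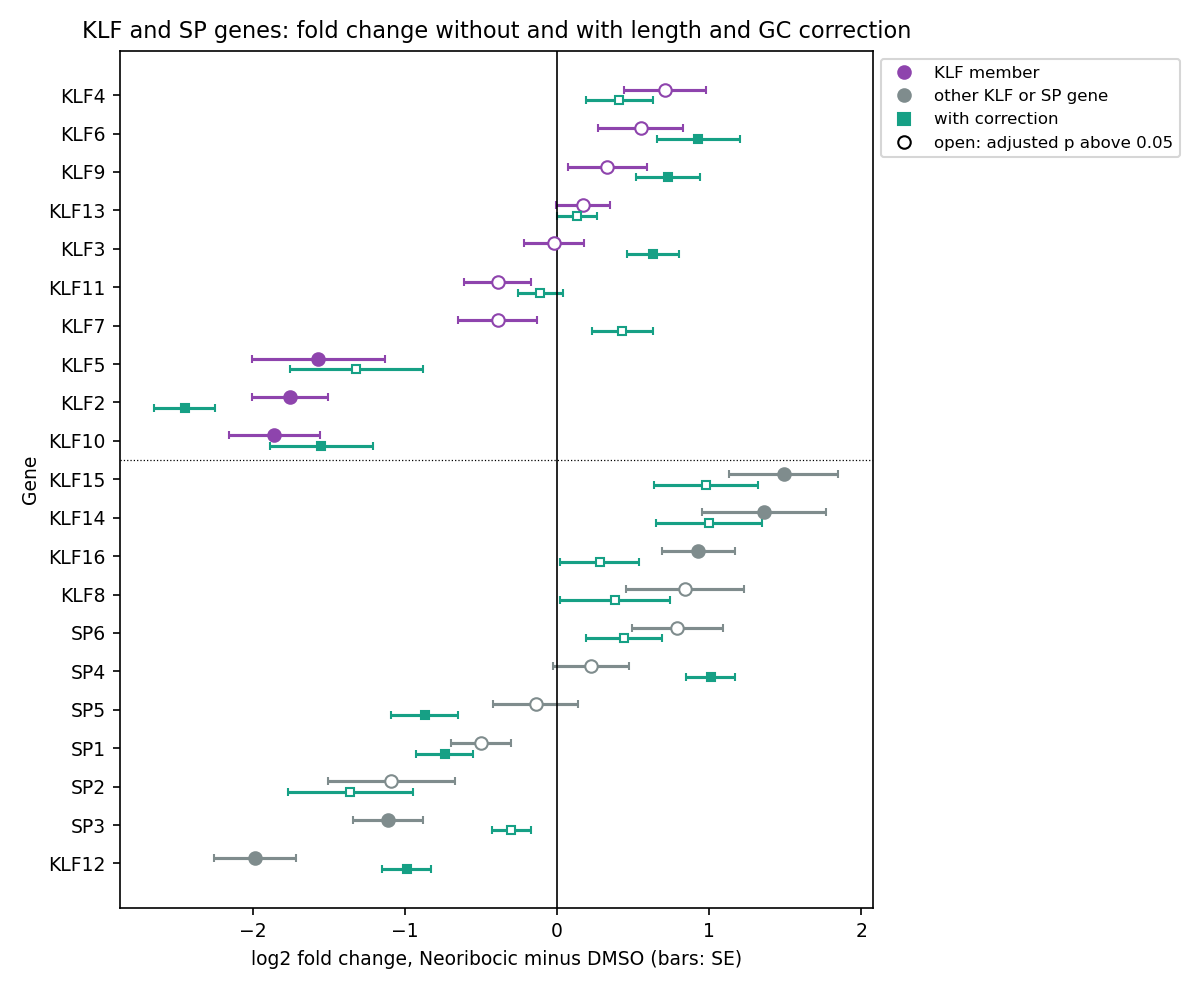
Log2 fold change, Neoribocic minus DMSO, with SE bars for the 10 KLF genes (above the dotted line) and the 11 other KLF and SP genes tested, circles without and squares with the length and GC correction; filled symbols have an adjusted p below 0.05. KLF2 and KLF10 are filled in both fits, at -1.76 and -1.86 without the correction.

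**Figure D3:**
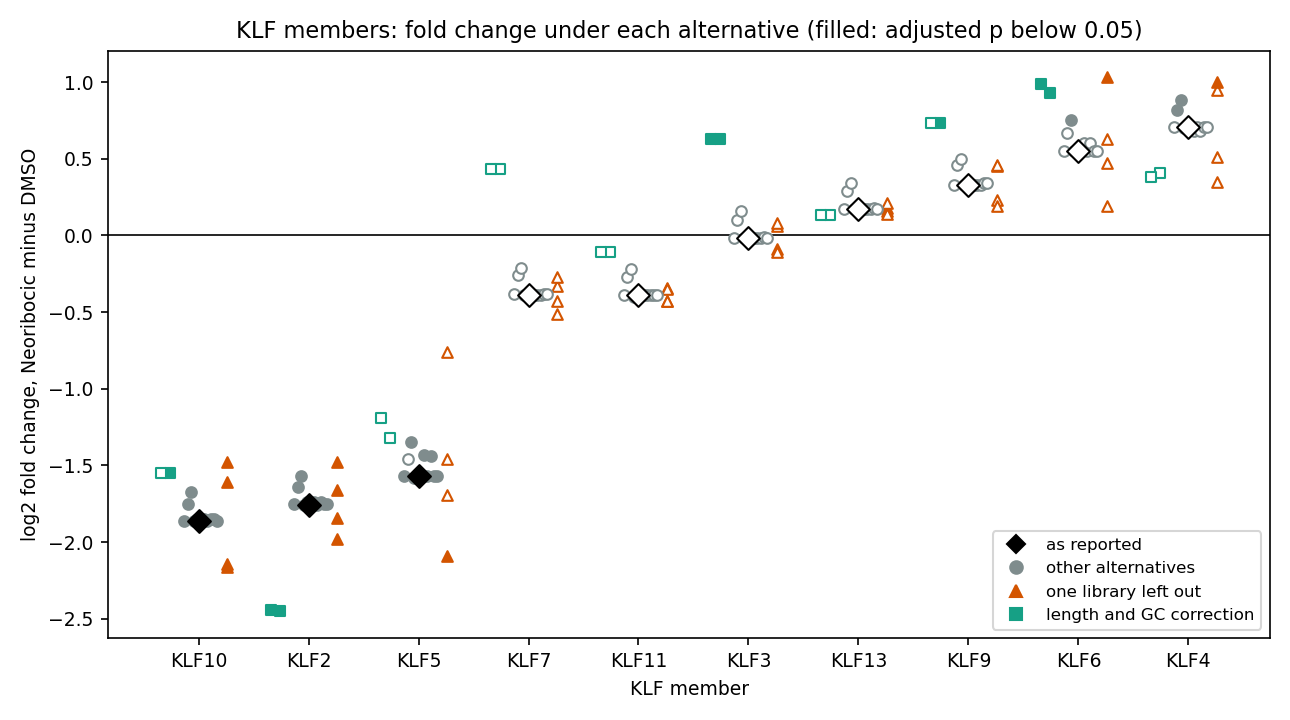
Log2 fold change, Neoribocic minus DMSO, of each KLF gene as reported (diamonds) and under 17 alternatives, filled where the adjusted p was below 0.05. KLF2 is filled throughout, KLF5 loses its call in several, and KLF4 and KLF6 gain one in some.

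Per kilobase of transcript the order of levels differed between the groups. In Neoribocic libraries KLF6 led at a mean of 78.2 CPM per kb, followed by KLF4 at 34.5, KLF13 at 14.8, KLF3 at 11.2, KLF5 at 9.89 and KLF10 at 9.67. KLF2 stood at 5.99, KLF11 at 4.69, KLF9 at 1.73 and KLF7 at 0.723 CPM per kb. In DMSO libraries KLF6 led at 53.5 CPM per kb, followed by KLF10 at 35.1, KLF5 at 29.5, KLF4 at 21.2 and KLF2 at 20.2. Each of these 5 overlapped its neighbour in the order, while KLF6 and KLF10 both lay wholly above KLF4 and KLF2. KLF13 at 13.2, KLF3 at 11.4, KLF11 at 6.16, KLF9 at 1.38 and KLF7 at 0.945 CPM per kb followed with no overlap. With Neoribocic the neighbours that overlapped were KLF3, KLF5 and KLF10. The 3 genes that fell made up 11.1% and 10.1% of the summed CPM of the 10 in Neoribocic libraries, against 30.0% and 36.4% in DMSO libraries. These 3 were picked by their calls in the same libraries, so their smaller share with Neoribocic largely follows from that choice. KLF6 alone made up 47.2% and 52.4% with Neoribocic, against 30.2% and 35.1% with DMSO. That share also depends on the 3 genes that fell, which are in the sum, and KLF6 itself was not called (edgeR adjusted p = 0.147). The summed level itself was 728 and 734 CPM in Neoribocic libraries and 595 and 908 CPM in DMSO libraries, which overlap.

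Of the 17 other KLF and SP genes, 11 were tested, 3 rose (KLF14, KLF15 and KLF16) and 2 fell (KLF12 and SP3). Over all genes 19.1% rose and 21.3% fell. KLF12, a CTBP-recruiting repressor like KLF3, had 7.49 and 10.5 CPM in Neoribocic libraries, against 40.7 and 30.9 CPM in DMSO libraries. Its log2 fold change was -1.99 ± 0.27 (edgeR adjusted p = 0.00147), and -0.99 after the correction (0.00794). Among the 36 windows of KLF and SP genes 2 held a MEF2 match, 1 of KLF2 and 1 of KLF12, where 2.8% of all windows held such a match. The other KLF12 windows held none. Whether the match bears on the KLF12 level was not tested. SP3, a relative of SP1 that binds GC boxes, had 48.2 and 62.1 CPM in Neoribocic libraries, against 135 and 103 CPM in DMSO libraries. Its log2 fold change of -1.11 (edgeR adjusted p = 0.0067) became -0.30 after the correction (0.127), and the call was lost without Neoribocic replicate 1 (0.0596).

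The calls of the genes that rose depended on single libraries. KLF15, a glucocorticoid-induced regulator of metabolism, had 10.7 and 6.76 CPM in Neoribocic libraries, against 3.89 and 2.29 CPM in DMSO libraries, with a log2 fold change of 1.49 ± 0.36 (edgeR adjusted p = 0.0135). Without Neoribocic replicate 1 or DMSO replicate 2 its adjusted p was 0.109 and 0.0576, and with the correction 0.0705 at 0.98. KLF16 had 69.1 and 65.9 CPM in Neoribocic libraries, against 41.8 and 29.2 CPM in DMSO libraries, a log2 fold change of 0.93 ± 0.24 (edgeR adjusted p = 0.0157). It stood at 0.28 after the correction (0.438) and lost its call without Neoribocic replicate 1 (0.0749) or DMSO replicate 2 (0.0788), and 16.3% of its exon bases overlap an antisense gene. KLF14 was low, at 1.77 and 1.5 CPM in Neoribocic libraries and 0.592 and 0.671 CPM in DMSO libraries. Its log2 fold change was 1.36 (edgeR adjusted p = 0.0298), a call lost with the correction (1.0 and 0.0685), with DESeq2 (adjusted p = 0.0607) and on leaving out each of the 4 libraries in turn (0.0582 to 0.19). KLF1, KLF18, SP7, SP8 and SP9 were listed at 0 in every library, and KLF17 was too low to test. After the correction the 1 other KLF or SP gene called higher was SP4, at 1.01 (edgeR adjusted p = 0.00761) against 0.22 without it (0.493).

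Of 19 cofactors through which KLF proteins act, 7 fell and 1 rose, with a median log2 fold change of -0.35. Over all genes tested, 21.3% fell and 19.1% rose, with a median of 0.01. After the length and GC correction the median was -0.14 for the cofactors and -0.01 for all genes. In the lists that follow, a value in brackets after a log2 fold change is the edgeR adjusted p, and a corrected value is the log2 fold change after the length and GC correction. NCOR1, a scaffold of HDAC3 corepressor complexes, had 72.4 and 78.8 CPM in Neoribocic libraries, against 269 and 243 CPM in DMSO libraries, and fell by 1.76 on the log2 scale (edgeR adjusted p = 7.83e-04; corrected -0.87). KAT2B, the acetyltransferase PCAF, fell by 1.84 (0.00155; corrected -1.35). The deacetylase gene HDAC2 fell by 0.93 (0.00734), a call lost without Neoribocic replicate 1 (0.0618) and absent after the correction, at 0.06 (0.788). FHL3, a LIM-domain partner of KLF3, rose to 24.9 and 27.3 CPM in Neoribocic libraries, against 11.8 and 11.6 CPM in DMSO libraries, at 1.15 (0.00517; corrected 0.46 and 0.134). Without Neoribocic replicate 1 the list had 2 lower calls and without DMSO replicate 2 it had 4.

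Of 29 upstream regulators 12 fell and 3 rose, with a median of -0.33, where 21.3% and 19.1% of all genes did. After the correction 4 were called lower and 2 higher, against 19.3% and 16.5% of all genes. Of the MEF2 factors that act on KLF2 and KLF4, MEF2D and MEF2A had the higher levels and were not called. MEF2D had 146 and 134 CPM in Neoribocic libraries, against 84.8 and 130 CPM in DMSO libraries, at 0.39 (edgeR adjusted p = 0.218). MEF2A had 43.2 and 42.9 CPM against 51.9 and 53.9 CPM, at -0.30 (0.257). MEF2C had 2.0 and 2.38 CPM in Neoribocic libraries, against 5.50 and 8.02 CPM in DMSO libraries. It fell by 1.62 (edgeR adjusted p = 0.00542), with -0.85 after the correction (0.0893) and 0.0545 without Neoribocic replicate 1. MRTFB, a coactivator of the serum response factor, had 5.01 and 5.58 CPM in Neoribocic libraries, against 25.3 and 40.2 CPM in DMSO libraries, and fell by 2.63 (7.94e-04; corrected -1.80). TGFBR2, the type II TGF-beta receptor gene upstream of KLF10 and KLF11, had 204 and 225 CPM in Neoribocic libraries, against 448 and 443 CPM in DMSO libraries, and fell by 1.05 (0.00357). The genes that rose were HDAC5, a class IIa deacetylase that restrains MEF2 factors, at 0.88 (0.0127), ATF4, the stress transcription factor, at 0.78 (0.0252), and CCM2, a scaffold that holds back ERK5 signalling in endothelium, at 0.64 (0.0445). Each lost its call without Neoribocic replicate 1 (0.0897, 0.179 and 0.246) and without DMSO replicate 1 (0.065, 0.064 and 0.117), and ATF4 and CCM2 also without DMSO replicate 2 (0.0974 and 0.129). After the correction ATF4 was at 0.24 (0.321) and CCM2 at -0.01 (0.947), and CCM2 also missed with limma-voom (adjusted p = 0.0534). The lower calls of this list numbered 4 after the correction, and 2, 6 and 7 without Neoribocic replicate 1, DMSO replicate 2 and DMSO replicate 1; 0 higher calls were left without Neoribocic replicate 1 or DMSO replicate 1.

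Of 16 ubiquitin ligases and deubiquitinases, among them enzymes that control KLF protein turnover, 3 fell and 3 rose, with a median of 0.06. For all genes the shares were 21.3% and 19.1%. WWP1, a ligase of KLF2 and KLF5, had 29.6 and 41.9 CPM in Neoribocic libraries, against 87.2 and 83.3 CPM in DMSO libraries, and fell by 1.25 (edgeR adjusted p = 0.00447; corrected -0.61). USP9X fell by 1.68 (0.00149; corrected -0.64), and SMURF2 by 0.91 (0.0216), a call lost after the correction (0.0621), with library totals (0.0571) and without Neoribocic replicate 1 (0.148) or DMSO replicate 1, where it stood at -0.59 (0.112). VHL, a ligase subunit that acts on KLF4, had 152 and 166 CPM in Neoribocic libraries, against 68.3 and 72.6 CPM in DMSO libraries, and rose by 1.17 (0.00251; corrected 1.42). SMURF1, a ligase of KLF2, rose by 1.02 (0.00551; corrected 1.18), and 11.7% of its exon bases overlap an antisense gene. STUB1 rose by 1.29 (0.00406), with 42.4% of its exon bases under an antisense gene, and stood at 0.44 after the correction (0.0642). After the correction the median of this list was 0.35 and the higher calls numbered 7, where 16.5% of all genes were called higher. With upper-quartile factors the higher calls numbered 6.

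Of 36 genes reported as targets of KLF factors in various tissues, 33 were tested, 6 rose and 5 fell, with a median of 0.35. Among all genes 19.1% rose and 21.3% fell. After the correction the median of the targets was 0.06, with 5 called higher and 5 lower, against 16.5% and 19.3% of all genes. LGALS3 (galectin-3), a gene repressed by KLF3 in mouse cells, had 204 and 161 CPM in Neoribocic libraries, against 58.5 and 58.1 CPM in DMSO libraries, and rose by 1.65 (edgeR adjusted p = 0.00109; corrected 0.89). The glucocorticoid-responsive genes PER1 and TSC22D3 rose by 1.99 and 1.64 (0.00139 and 0.00148), whereas FKBP5, of the same class, fell by 1.07 (0.00436; corrected -0.61). SNAI2, the mesenchymal transcription factor Slug and a target of KLF5 in breast cancer lines, had 4.26 and 4.02 CPM in Neoribocic libraries, against 20.2 and 48.4 CPM in DMSO libraries, and fell by 3.05 ± 0.43 (0.0028). Without DMSO replicate 2 its log2 fold change was -2.28 (0.00378). LAMA3, a laminin chain gene, fell by 1.38 (0.00209; corrected -0.82). Without Neoribocic replicate 1 this list had 3 higher and 3 lower calls, and with upper-quartile factors 10 higher.

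**Figure D4:**
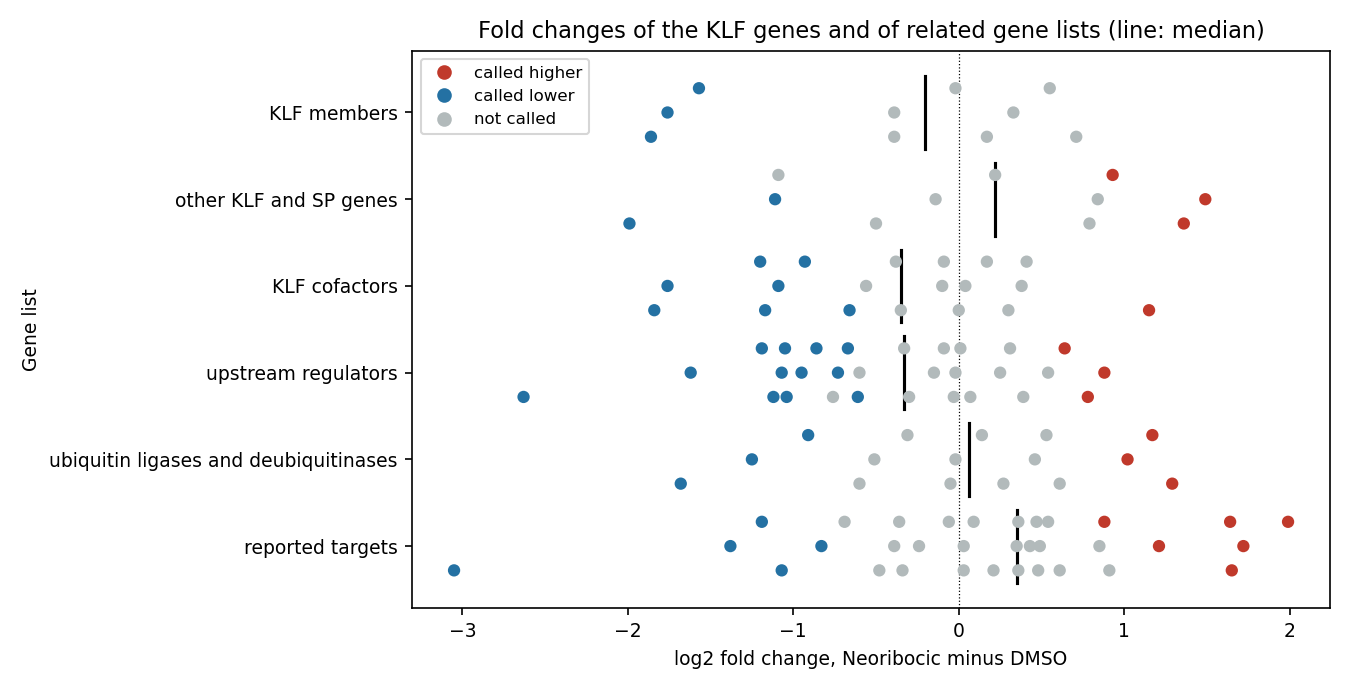
Log2 fold change, Neoribocic minus DMSO, of each tested gene in the KLF group and in 5 related lists, coloured by its call, with a line at each list's median. The KLF genes split into 3 from -1.86 to -1.57 and 7 from -0.39 to 0.71; the other lists hold calls in both directions.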

How the data were processed

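Messenger RNA libraries were built from 1.4 µg of total RNA, per the labels' protocols. The authors deposited raw whole-number counts per Ensembl gene with no normalization; the sources used here name no aligner, counter or strand setting. The only builds in the submitters' processing notes, GRCm38 and mm10, are of mouse, while the gene IDs are human. Of 20263 IDs, 19761 had a symbol. Among counts below 20, 62.3% to 65.4% were even, and among counts of 20 to 200, 50.3% to 51.3%. The reason was not tested.

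The counts were tested with edgeR 4.0.16 in R 4.3.3: filterByExpr by group, TMM scaling, a robust quasi-likelihood fit with group as the only term, glmQLFTest, and Benjamini-Hochberg adjustment over 13879 genes. The SE is the log2 fold change divided by the square root of F. Levels are CPM on TMM-scaled totals, and per-kilobase levels divide by 1 GENCODE release 29 transcript per gene, the longest principal one. The correction used offsets from a smooth surface of log2 CPM, fitted per library on GC content and transcript length with mgcv 1.9-3. Alternatives also included DESeq2 1.42.0 and limma-voom (limma 3.58.1), other scalings and filters, each library left out and, chosen after seeing the data, halved counts. The code was tested on simulated data. Of planted 4-fold changes 58 of 66 were recovered, of 2-fold changes 14 of 67 and of 1.5-fold changes 3 of 67. Far fewer genes were changed in the simulation than were called here, so its shares of recovered and false calls need not hold for these data. With the gene-wise spread of these data the share of false calls exceeded the adjusted p threshold, so adjusted p-values near it may be too small. The KLF genes, the lists and the tests were chosen with earlier results of these data known. All 10 KLF genes and the called KLF and SP genes are named. Other lists are named by up to 3 called genes per direction with the smallest p, with MEF2A and MEF2D added beside MEF2C. List counts are described with no set test. Replicate libraries differed beyond counting noise in 68.6% (Neoribocic) and 74.6% (DMSO) of genes, so none was a copy. The noise was judged on raw library totals, so these shares include differences in scaling.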

Additional observations from a re-analysis of the deposited data

How the results depend on the processing

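KLF2 kept its direction and call under all 17 alternatives, and KLF10 under 16. Over the 10 KLF genes, 146 of 170 values under an alternative kept direction and side of the threshold, 7 kept direction and lost the call, 9 kept direction and gained one, and 8 changed sign, of which 2, both of KLF3 in the corrected fits, were also called. The lower count of 3 became 1 with the replicate block plus the length and GC correction, and was 2 to 3 with 1 library left out. The higher count of 0 became 1 with upper-quartile factors and with DESeq2, 2 with library totals, 3 with the correction and 2 with the block plus correction, and was 0 to 1 with 1 library left out. The sign changes were those of KLF3 (0.10 with upper-quartile factors, 0.16 with library totals, 0.63 with the correction and with the block plus correction, and -0.11 to 0.08 with 1 library left out), KLF7 (0.43 in both corrected fits), HDAC2 (0.06 with the correction and 0.05 with the block plus it) and CCM2 (-0.01 in both). The cause of these changes was not tested.

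The replicate number as a block gave a KLF5 adjusted p of 1.14e-04 and kept the counts at 3 lower and 0 higher. Same-numbered libraries did not deviate together (correlation of replicate differences -0.0548), so the numbers were not read as pairs. In the lists, with the correction, other KLF and SP genes had 1 higher, cofactors 2 higher, upstream regulators 4 lower and ubiquitin enzymes 7 higher; with block plus correction, 4 lower for other KLF and SP genes, 2 higher for cofactors, 5 lower for upstream regulators and 7 higher for ubiquitin enzymes. With upper-quartile factors ubiquitin enzymes had 6 and targets 10 higher. At an adjusted p of 0.01 the counts were 0 higher for other KLF and SP genes, 3 lower for cofactors, 0 higher and 5 lower for upstream regulators, 3 lower for targets, and 2883 of all genes, 1138 higher and 1745 lower. Without Neoribocic replicate 1 the calls over all genes numbered 2468, 1001 higher and 1467 lower. With 1 library left out the counts were 0 to 2 for other KLF and SP genes higher, 1 to 3 for other KLF and SP genes lower, 2 to 7 for KLF cofactors lower, 0 to 3 for upstream regulators higher, 2 to 9 for upstream regulators lower, 3 to 5 for reported targets higher, 3 to 5 for reported targets lower, 2468 to 4536 calls for all genes, 1001 to 2215 for all genes higher, 1467 to 2382 for all genes lower. Depth limits KLF14 most among the named genes, at 21 to 75 counts per library.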
